A study of Mus musculus with 6 samples.

Results

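The C-type lectin receptors described here are 10 genes, Clec7a, Clec4e, Clec4d, Clec4n, Clec5a, Clec10a, Clec12a, Clec4a1, Clec4b1 and Cd207, of the 23235 rows of the authors' deposited table. They were taken as the rows whose gene name equals one of these symbols, and the list was chosen by their measured FPKM values in the groups compared and the log2 ratio between them. Their values are therefore a description, and no test is drawn from them. The authors' deposited table gives a test for 9 of the 10, among 11755 genes tested, and lists the tenth, Clec4e, without a usable value in 1 group.

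RNA was sequenced from primary macrophages that had been grown from mouse bone marrow with conditioned medium of L-929 cells and then moved to serum-free medium. All 6 samples, controls included, carried the GRdim mutation on both alleles, which weakens dimer formation of the glucocorticoid receptor, and cells with the wild-type receptor were not analysed here. The LPS group held 3 samples given lipopolysaccharide (LPS), a glycolipid of bacterial outer membranes that macrophages sense, for 6 h. The LPS+Dex group held 3 samples given 1 µM dexamethasone (Dex), a synthetic glucocorticoid, overnight before the same 6 h of LPS. The growth text of every sample mentions Dex, so the groups were taken from the titles. The labels do not state animal ages or whether the 3 samples of each group are separate animals, so the deposited p-values may measure only technical spread.

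C-type lectin receptors are membrane proteins that bind sugars, glycolipids and other ligands on fungi, mycobacteria and damaged cells. The activating receptors signal through a tyrosine motif of their own or through the adaptor chains FcRγ and DAP12, which recruit the kinase Syk and then a complex of Card9, Bcl10 and Malt1 that switches on NF-kB. Inhibitory members carry a motif that recruits the phosphatases SHP-1 and SHP-2, and others mainly take up sugar-bearing ligands. Many of the genes lie in clusters on mouse chromosome 6, and myeloid cells are the main cells that express them.

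The authors' deposited table holds 1 value per gene and group, so the values below are group values and no value per sample can be shown. They are FPKM, fragments scaled by transcript length and library total, a scale per length on which genes can be compared with each other. A gene is called higher or lower in LPS+Dex where the q-value in the authors' deposited table is under 0.05. The error beside a log2 ratio is an implied standard error (SE), the log2 ratio divided by the deposited test statistic, and intervals are 95% intervals from it. Library depth is unknown. In bulk RNA, fewer cells of a type and less RNA per cell cannot be told apart. Of all genes tested, 42.9% were called, 17.7% higher and 25.2% lower, with a median log2 ratio of -0.01.

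The label of the cells was compared with marker lists in the authors' deposited table. Of 12 macrophage markers tested, 6 were higher and 2 lower, and their summed level was 3831 FPKM in LPS and 4207 FPKM in LPS+Dex. Among them the receptor gene Csf1r stood at 142 and 168 FPKM and Cd68 at 588 and 686 FPKM, while the macrophage gene Lyz2 is listed at 0 in both groups with the mark HIDATA, which Cufflinks gives to a locus with too many fragments to process. With the trend of log2 ratio on level over all genes removed, 8 macrophage markers were higher and 1 lower. C5ar1, a complement receptor gene, rose from 54.8 to 107.6 FPKM, and Aif1 fell from 48.0 to 29.5 FPKM. Of 18 dendritic cell markers, 10 were tested, 1 higher and 8 lower, and the summed level was 1104 FPKM in LPS and 848 FPKM in LPS+Dex. Most of this sum was Bst2, at 878 FPKM in LPS and 769 FPKM in LPS+Dex. Those 10 include genes that macrophages also express, such as Cd74, which fell from 163 to 43.8 FPKM, and Ccr7 fell from 2.63 to 0.589 FPKM. Of the defining genes, Cd209a was at 0 in both groups and Flt3 stood at 0.0177 and 0.0212 FPKM. Batf3 stood at 0.885 and 0.917 FPKM and was not called, and Xcr1 was lower, at 0.529 and 0.114 FPKM (log2 ratio -2.21). The summed level of 9 monocyte markers was 60.0 and 58.2 FPKM, with 2 higher and 5 lower, where Ccr2 fell from 2.44 to 0.586 FPKM and F13a1 rose from 1.44 to 8.22 FPKM. Of 13 neutrophil markers listed, 8 were tested, 2 higher and 5 lower, summing to 135 and 115 FPKM. Of 11 T and NK cell markers 2 were tested, both lower, summing to 5.52 and 2.26 FPKM, and Cd3g was at 0 in both groups. Of 8 B cell markers 3 were tested, 2 of them lower, summing to 38.9 and 16.1 FPKM, nearly all Blnk. Of 12 mast cell, basophil and eosinophil markers 3 were tested, 2 of them lower, summing to 1.68 and 0.954 FPKM. Of 10 stromal markers 5 were tested, 1 higher, summing to 3.78 FPKM in LPS. The part of any such cells in the results below was not tested.

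Promoter sequences are shown for Cd207 and Clec7a, the genes with the largest called rise and fall among those with a promoter in the reference, and for Clec4d, the most abundant one with a measured value in both groups, which was chosen after its values were seen. They are taken from RefSeq for build GRCm38.p6, from 250 bases before to 50 bases after the annotated start, and are written along the strand of the gene. Capitals mark matches on either strand to AGAACA, the glucocorticoid receptor hexamer, to GAGGAA, a core bound by the myeloid factor PU.1, and to TGANTCA, bound by AP-1.
Cd207, chr6:83677808-83678107, minus strand: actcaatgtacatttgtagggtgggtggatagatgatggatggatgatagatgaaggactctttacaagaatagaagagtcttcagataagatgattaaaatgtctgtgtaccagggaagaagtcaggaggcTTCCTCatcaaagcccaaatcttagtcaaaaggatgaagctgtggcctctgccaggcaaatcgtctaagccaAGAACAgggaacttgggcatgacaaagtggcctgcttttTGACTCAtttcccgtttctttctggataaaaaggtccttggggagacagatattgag
Clec7a, chr6:129472730-129473029, minus strand: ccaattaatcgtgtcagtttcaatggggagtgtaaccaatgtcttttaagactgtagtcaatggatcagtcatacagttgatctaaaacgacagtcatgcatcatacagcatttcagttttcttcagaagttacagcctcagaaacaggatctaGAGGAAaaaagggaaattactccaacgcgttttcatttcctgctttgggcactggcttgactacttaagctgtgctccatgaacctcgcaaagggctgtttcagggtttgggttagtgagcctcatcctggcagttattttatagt
Clec4d, chr6:123261857-123262156, plus strand: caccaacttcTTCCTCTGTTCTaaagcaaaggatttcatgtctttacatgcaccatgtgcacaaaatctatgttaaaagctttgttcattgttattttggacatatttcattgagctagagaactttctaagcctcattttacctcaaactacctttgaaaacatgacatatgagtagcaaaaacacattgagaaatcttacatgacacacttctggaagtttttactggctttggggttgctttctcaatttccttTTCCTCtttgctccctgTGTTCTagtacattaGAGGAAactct

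RefSeq gave a promoter for 8 of the 10 genes, those of Clec10a and Clec4n not being in the table used. GAGGAA occurred in 8 of the 8, against 28.3% of all 32851 promoters searched, 27.2% of promoters of tested genes and 28.0% of promoters within the GC range of the 8, which was 32.3% to 45.7%. AGAACA occurred in 2 of the 8, against 19% of all promoters, 12.7% of promoters of tested genes and 29.3% of those in the same GC range. With positions counted from the start and negative before it, Cd207 held it once, at -46, and Clec4d held it at -234, where it adjoins a GAGGAA match, and at 25. The inverted pair, AGAACA followed after 3 bases by TGTTCT, was in none of the 8 and in 3 of all promoters. TGANTCA was in Cd207 at -7 and in Clec12a at -213, against 7.81% of all promoters, 5.42% of promoters of tested genes and 12.2% of those in the same GC range. The C/EBP motif TTGCNNAA was in Clec4e at -66 and Clec12a at -140, against 10.8% of all promoters, 8.66% of promoters of tested genes and 16.5% of those in the same GC range. Clec7a has an annotated second start 6 bases away, and its single match to these motifs was GAGGAA, at -96. A match here is a run of letters and was not tested as a bound site.

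In LPS the tested lectin receptor genes spanned a 1930-fold range in the authors' deposited table. Of the 9 tested, 6 stood above 20 FPKM and 3 below 1 FPKM in LPS, and Clec4e, with no test, stood above them all. Of these 9, 3 were called higher and 4 lower, beside 17.7% and 25.2% of all genes, and the 2 others, Clec4d and Clec4b1, were not called. The 7 calls of 9 stand beside 42.9% of all genes, and because the list was chosen on these values nothing is read from its count. With the trend on level removed 4 were higher and 3 lower. The median log2 ratio of the 9 was -0.14. Their summed level was 791.5 FPKM in LPS and 714.2 FPKM in LPS+Dex, and Clec4d alone made 58.4% and 64.0% of it. Without Clec4d the sum was 329 and 257 FPKM.

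**Figure D1:**
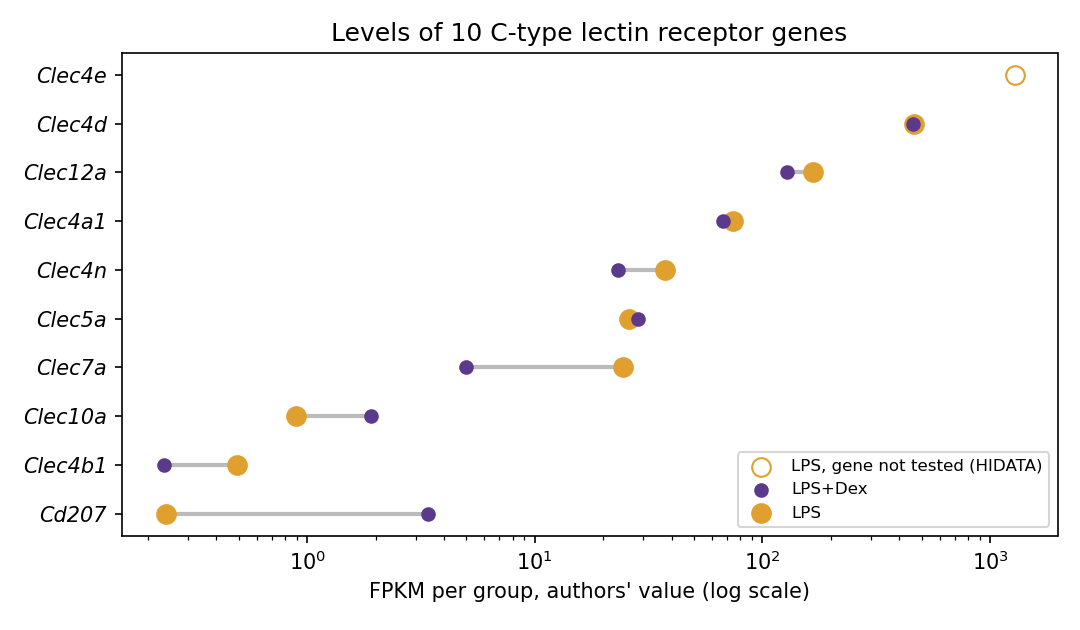
Levels of the 10 lectin receptor genes in FPKM on a log axis, with large amber points for LPS and small purple points for LPS+Dex, 1 group value each and no error bars, since the table has no values per sample. Clec4e, at 1286 FPKM in LPS, has only an open point because its LPS+Dex entry is not a measurement, Clec4d lies at 462 and 457 FPKM with its points overlapping, and Cd207 and Clec7a have the points furthest apart.

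Of the receptors that couple to FcRγ and Syk, Clec4e encodes mincle, which binds the mycobacterial glycolipid trehalose dimycolate. In mm9 it lies on chromosome 6 at 123231806 to 123239889. The authors' deposited table gives it 1286 FPKM in LPS, above 99.8% of tested genes and the highest of the 10. Its entry for LPS+Dex is 0 with the mark HIDATA, so this 0 is not a measurement and no ratio is given. The table holds 30 such rows, of which 9 are at 0 only in LPS, 2 only in LPS+Dex and 19 in both.

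Clec4d encodes MCL, a receptor that forms a complex with mincle, and lies next to it at 123212124 to 123225286. Its values in the authors' deposited table were 462 FPKM in LPS and 457 FPKM in LPS+Dex, with a log2 ratio of -0.02 (implied SE 0.058, interval -0.13 to 0.097). The group values were close, and Clec4d was not called. Removing the trend on level, which is -0.19 at its level, gives 0.17 and a call of higher. Clec4n encodes dectin-2, which binds fungal mannans, at 123179860 to 123197042. It went from 37.2 to 23.1 FPKM, a log2 ratio of -0.69 (implied SE 0.068). Clec4d stood 12.4-fold above Clec4n in LPS and 19.8-fold above it in LPS+Dex.

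Clec7a encodes dectin-1, the receptor for fungal beta-glucan, which carries its own tyrosine motif. It lies at 129411608 to 129422795 on chromosome 6. Its values in the authors' deposited table were 24.4 FPKM in LPS and 5.00 FPKM in LPS+Dex, which is 20.4% of the LPS level or 4.89-fold lower. The log2 ratio was -2.29 (implied SE 0.062, interval -2.41 to -2.17), the largest fall of the 9 tested. In LPS 78.0% of tested genes stood below Clec7a, and in LPS+Dex 46.8% did. Clec12a stood 6.80-fold above Clec7a in LPS and 25.6-fold above it in LPS+Dex. Likewise Clec5a stood 1.06-fold above Clec7a in LPS and 5.70-fold above it in LPS+Dex.

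Clec5a encodes MDL-1, which signals through DAP12, and lies at 40524896 to 40535804, away from the other clusters. In the authors' deposited table it went from 25.8 to 28.5 FPKM, a log2 ratio of 0.14 (implied SE 0.053, interval 0.038 to 0.24). It was called higher at a q of 0.05, but not at 0.01. Clec4b1 encodes DCAR, an FcRγ-coupled relative of dectin-2, at 122999979 to 123021573. Its values were 0.491 and 0.236 FPKM, with a log2 ratio of -1.06 and a wide interval of -2.33 to 0.21, and it was not called. Of the read-length windows of its transcript 0 occur in another gene, and 9.73% of 50-base windows also occur in Clec4a2.

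Among receptors that inhibit or take up ligands, Clec12a encodes an inhibitory receptor that binds uric acid crystals, at 129300261 to 129315321. The authors' deposited table gave 166 FPKM in LPS and 128 FPKM in LPS+Dex, a log2 ratio of -0.38 (implied SE 0.050, interval -0.47 to -0.28). With the trend on level removed the ratio was -0.22 and the call stayed lower. Clec4a1, a relative of the inhibitory receptor gene Clec4a2, lies at 122871865 to 122884637. It went from 74.1 to 67.1 FPKM, a log2 ratio of -0.14 (implied SE 0.048, interval -0.24 to -0.047). Its call of lower ended with the trend on level removed, at -0.02.

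Clec10a encodes MGL1, which binds galactose-type sugars and marks alternatively activated macrophages, and lies on chromosome 11 at 69980124 to 69984338. Its values in the authors' deposited table were 0.890 FPKM in LPS and 1.91 FPKM in LPS+Dex, a log2 ratio of 1.10 (implied SE 0.26, interval 0.59 to 1.61). At these low levels, adding 1 FPKM to both groups gives 0.62. Of read-length windows of its transcript 3.99% also occur in its relative Mgl2, and 10.6% of 50-base windows do, so the assignment of reads from those windows is uncertain. Mgl2 itself stood at 0.0242 FPKM in LPS and 0.00792 FPKM in LPS+Dex and was not tested.

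Cd207 encodes langerin, a mannose-binding receptor known from Langerhans cells, in which it forms Birbeck granules. It lies on chromosome 6 at 83621200 to 83627851. The authors' deposited table gave 0.239 FPKM in LPS and 3.40 FPKM in LPS+Dex, 14.2-fold higher, with a log2 ratio of 3.83 (implied SE 0.28, interval 3.29 to 4.37). This was the largest rise of the 9, and adding 1 FPKM to both groups gives 1.83. It was the lowest of the 10 in LPS and the seventh of the 9 tested in LPS+Dex, where it stood 1.78-fold above Clec10a, against 0.269-fold in LPS. Of 9 Langerhans cell markers 4 were tested, with 2 higher and 1 lower, summing to 147 FPKM in LPS and 172 FPKM in LPS+Dex, most of it Csf1r, which macrophages also express. The defining marker Epcam stood at 0.0259 FPKM in LPS and 0.0160 FPKM in LPS+Dex, and none of the 5 untested markers exceeded 0.0359 FPKM.

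The other C-type lectin genes of the table numbered 63, of which 20 were tested. The authors' deposited table has 3 of them higher, 10 lower and 7 not called, against 17.7% higher and 25.2% lower of all genes, and their median log2 ratio was -0.34. No value was above 0 in either group for 21 genes, among them all 7 genes from Cd209a to Cd209g. Olr1, the receptor for oxidised LDL, fell from 1.36 to 0.628 FPKM, a log2 ratio of -1.11 (implied SE 0.12). Ly75, an endocytic receptor of dendritic cells, fell from 3.48 to 1.94 FPKM (log2 ratio -0.84, implied SE 0.069). Cd69, an early activation marker, fell from 273 to 156 FPKM (-0.81, implied SE 0.049), and Klrk1, which encodes the NK receptor NKG2D, fell from 13.6 to 8.44 FPKM (-0.69, implied SE 0.057). These 4 genes thus stood between a log2 ratio of -1.11 and -0.69. Of the uncalled genes, the most abundant were Cd72 at 169 and 181 FPKM, which with the trend on level removed was called higher at 0.26, and Cd302 at 41.8 and 40.0 FPKM. Mrc1, the mannose receptor, fell from 15.8 to 12.2 FPKM (log2 ratio -0.37). Cd93, chosen like Mrc1 after values were seen, rose from 16.7 to 23.8 FPKM (log2 ratio 0.51).

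**Figure D2:**
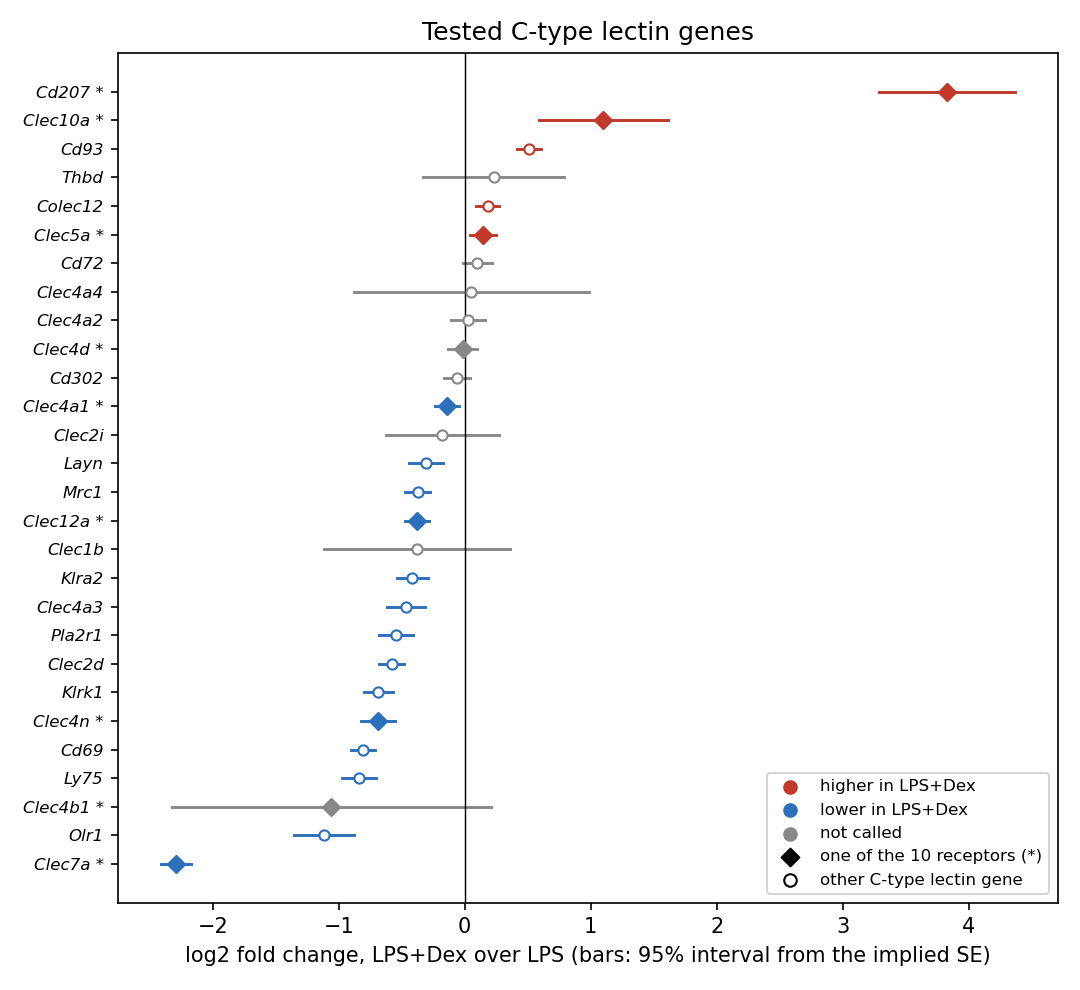
Log2 ratio of LPS+Dex over LPS, with 95% intervals from the implied SE, for the 9 tested lectin receptor genes (filled diamonds) and other tested C-type lectin genes (open circles), with red for called higher, blue for called lower and grey for not called. Cd207 at 3.83 and Clec7a at -2.29 lie furthest out, and the other lectin genes shown lie between -1.11 for Olr1 and 0.51 for Cd93.

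Of the signalling genes downstream of the receptors, all 44 were tested. The authors' deposited table has 8 higher, 18 lower and 18 not called, against 17.7% higher and 25.2% lower of all genes. The median log2 ratio of the 44 was -0.11. Fcer1g, which encodes the FcRγ chain, fell from 1332 to 1160 FPKM (log2 ratio -0.20, implied SE 0.055), a call that ended with the trend on level removed, at 0.02. Syk rose from 193 to 223 FPKM (log2 ratio 0.20, implied SE 0.064), and Card9 rose from 5.63 to 7.13 FPKM (0.34, implied SE 0.076). The partners of Card9 were lower, Malt1 from 154 to 121 FPKM and Bcl10 from 43.0 to 37.3 FPKM. The DAP12 gene Tyrobp stood at 787 and 734 FPKM and was not called.

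Among signalling genes with at least 1 FPKM in a group, changes past 1.5-fold were falls of the Src family kinase gene Fgr, from 6.06 to 3.21 FPKM (log2 ratio -0.92, implied SE 0.067), and of Rel, an NF-kB subunit, from 18.9 to 10.3 FPKM (-0.88, implied SE 0.055). Itpr2, a calcium release channel gene, fell from 3.92 to 2.33 FPKM, and Src fell from 95.5 to 59.8 FPKM. Pik3cg, a phosphoinositide kinase gene, rose from 5.53 to 8.79 FPKM (log2 ratio 0.67, implied SE 0.061). Below 1 FPKM, Nfatc2, a calcium-dependent transcription factor gene, rose from 0.229 to 0.493 FPKM (log2 ratio 1.11, implied SE 0.24). Of the genes named for this pathway, Nfatc2, Syk, Card9, Fcer1g, Malt1 and Bcl10 were chosen after their values were seen.

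Of 15 inhibitors of this signalling, all tested, 3 were higher, 8 lower and 4 not called, against 17.7% higher and 25.2% lower of all genes. The median log2 ratio of the 15 was -0.14. With the trend on level removed, 4 were higher and 6 lower. Pag1, a membrane adaptor, rose from 6.09 to 10.7 FPKM in the authors' deposited table (log2 ratio 0.81, implied SE 0.054). The SHP-1 gene Ptpn6 fell from 220 to 189 FPKM (log2 ratio -0.22, implied SE 0.052), which was not called with the trend on level removed, at -0.05, and the SHP-2 gene Ptpn11 stood at 26.4 and 24.8 FPKM and was not called. Cbl stood at 16.1 and 16.3 FPKM and was not called. Ptpn6 was chosen after its values were seen.

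Of 22 genes known to be induced through dectin-1 and mincle, 17 were tested. The authors' deposited table has 4 of them higher, 11 lower and 2 not called, against 17.7% higher and 25.2% lower of all genes. The median log2 ratio of the 17 was -0.51. Ptgs2 and Il1b were marked HIDATA and had no test. Nr4a3 fell from 1.36 to 0.183 FPKM (log2 ratio -2.89), the chemokine gene Ccl22 fell from 185 to 32.5 FPKM (-2.51), and Il12b, a subunit of interleukin-12, fell from 27.4 to 6.54 FPKM (-2.07). Csf2, which encodes the growth factor GM-CSF, was also lower, at 0.208 and 0.0313 FPKM (log2 ratio -2.73), levels below 1 FPKM, and was named after its values were seen. Il6 fell from 409.8 to 205 FPKM, and Egr2 from 2.65 to 1.32 FPKM. The neutrophil growth factor gene Csf3 rose from 11.3 to 18.7 FPKM (log2 ratio 0.72), the chemokine gene Cxcl2 from 585 to 910.4 FPKM and Cxcl1 from 275 to 419 FPKM. Il10 stood at 32.5 FPKM in both groups and Nr4a1 at 0.431 and 0.354 FPKM, and neither was called. LPS is also known to induce many of these genes.

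Of 28 partner receptors for microbial glycans, 26 were tested, with 6 higher, 11 lower and 9 not called in the authors' deposited table. Of all genes tested, 17.7% were higher and 25.2% lower. The median log2 ratio of the 26 partner receptors was -0.13. With the trend on level removed, 10 were higher and 9 lower. Cd33, a sialic acid-binding receptor, rose from 6.49 to 21.7 FPKM (log2 ratio 1.74, implied SE 0.067), and Trem1 rose from 0.782 to 2.12 FPKM (1.44, implied SE 0.12). Marco, a scavenger receptor, rose from 8.18 to 13.2 FPKM (0.69, implied SE 0.062). No partner receptor was lower by 1.5-fold or more. The LPS co-receptor gene Cd14 stood at 1753 and 1948 FPKM and Lgals3, which encodes a galactose-binding lectin, at 1680 and 1514 FPKM, and neither was called. With the trend on level removed Cd14 was called higher, at 0.38.

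Of 24 transcription factors of lectin receptor genes, 22 were tested, with 5 higher, 10 lower and 7 not called in the authors' deposited table. Of all genes tested, 17.7% were higher and 25.2% lower. The median log2 ratio of the 22 factors was -0.12. Ahr fell from 1.43 to 0.350 FPKM (log2 ratio -2.03, implied SE 0.12), and Irf8, a myeloid lineage factor, fell from 146 to 49.4 FPKM (-1.56, implied SE 0.048). Bhlhe40 fell from 1.57 to 0.793 FPKM, and Klf4 from 4.71 to 2.66 FPKM. Maf fell from 77.4 to 40.2 FPKM. Sfpi1, the older symbol of the PU.1 gene, stood at 401 and 376 FPKM and Cebpb at 326 and 355 FPKM, and neither was called. Cebpb was called higher with either scaling alternative, at 0.15 with centring on the median and 0.30 with the trend on level removed.

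**Figure D3:**
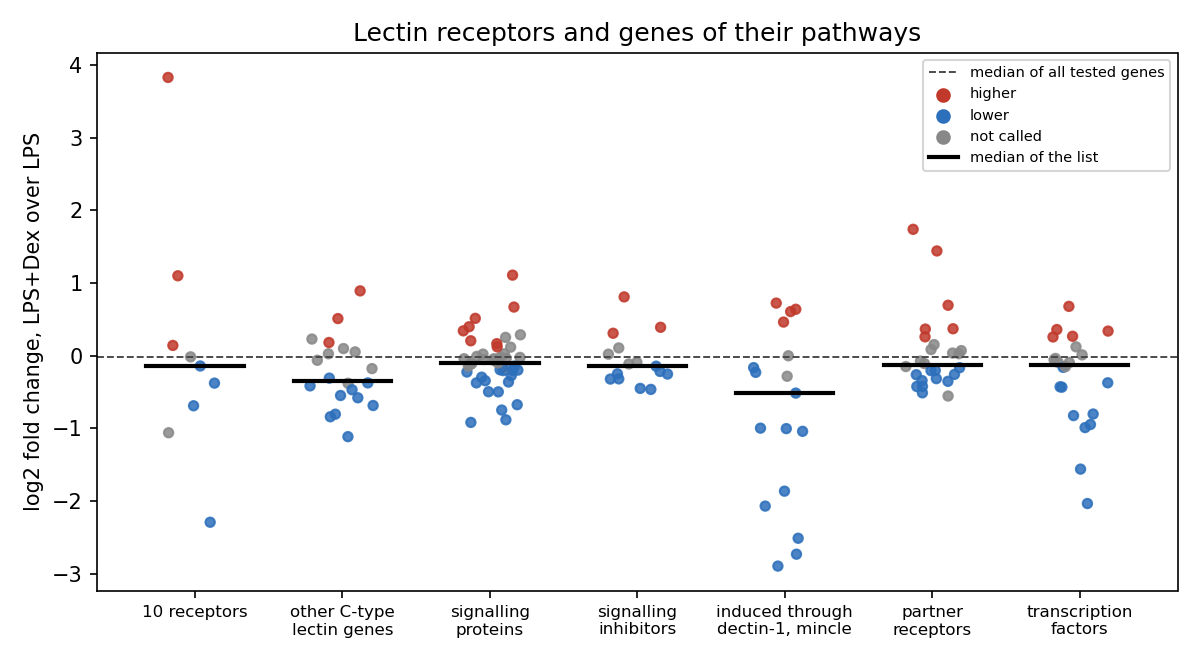
Log2 ratio of LPS+Dex over LPS for each tested gene of the lectin receptor list and of the lists of genes of their pathways, 1 point per gene, red for called higher, blue for lower and grey for not called, with a black bar at the median of each list and a dashed line at that of all genes tested. The medians run from -0.51 for genes induced through dectin-1 and mincle to -0.11 for signalling genes, beside -0.01 for all genes tested.

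The lectin receptor genes lie close to each other and to related genes, so their neighbours within 250 kb were counted in mm9. Clec4a1, Clec4b1, Clec4n, Clec4d and Clec4e lie in 368 kb on chromosome 6. Of 11 genes tested there or within 250 kb to either side, 0 were higher, 5 lower and 6 not called in the authors' deposited table. Of all genes tested, 17.7% were higher and 25.2% lower. The 11 include lectin receptor genes, which were chosen on these values, so nothing is read from the count. Of the 7 that are not on the lectin receptor list, 0 were higher, 3 lower and 4 not called, with a median log2 ratio of 0.009. Removing the trend on level left 3 of the 11 lower and made 1 higher. Among the 5 lower genes is Clec4a3, a relative of Clec4a2, which fell from 21.3 to 15.4 FPKM (log2 ratio -0.47, implied SE 0.078). Clec4a2 itself stood at 13.3 and 13.5 FPKM and was not called. Clec12a and Clec7a lie within 123 kb of chromosome 6. There or within 250 kb to either side 9 genes were tested, 0 higher, 7 lower and 2 not called, with a median log2 ratio of -0.58. Of the 7 of these genes that are not on the lectin receptor list, 5 were lower, against 25.2% of all genes. They include Clec2d, which fell from 60.7 to 40.7 FPKM (-0.58, implied SE 0.051), with Cd69, Olr1 and Klrk1 named above. Cd69, Olr1 and Klrk1 were already counted among the other C-type lectin genes. Clec2d and Clec4a3 were chosen after their values were seen.

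**Figure D4:**
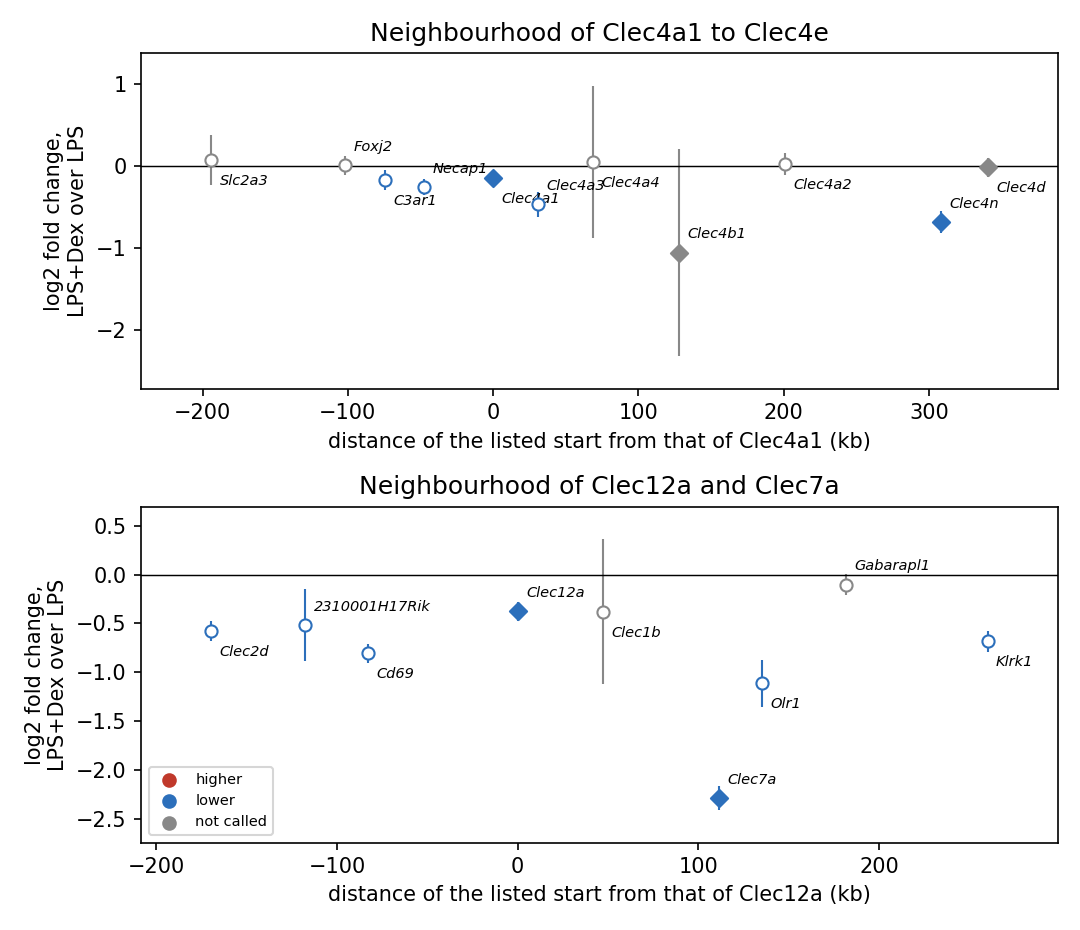
Log2 ratio of LPS+Dex over LPS, with 95% intervals from the implied SE, for tested genes against the distance in kb of their listed start from that of Clec4a1 (upper panel) or Clec12a (lower panel), with diamonds for the lectin receptor genes, circles for their neighbours, red for called higher, blue for lower and grey for not called. In the upper panel 5 of 11 genes are lower and in the lower panel 7 of 9, with 0 higher in both, beside 25.2% lower and 17.7% higher of all genes. Both counts include lectin receptor genes, which were chosen on these values.

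Around Clec5a, 5 genes were tested, 1 higher and 3 lower, against 17.7% higher and 25.2% lower of all genes. The 1 that was higher was Clec5a itself. Olfr461, an olfactory receptor gene, was lower at 0.344 and 0.105 FPKM, and E330009J07Rik was lower at 0.573 and 0.266 FPKM. Around Clec10a, 16 genes were tested in the authors' deposited table, with 3 higher and 4 lower, or 4 higher and 1 lower with the trend on level removed. The 3 higher include Clec10a itself, which was chosen on these values. Without it 15 were tested, 2 higher and 4 lower, against 17.7% higher and 25.2% lower of all genes. Alox15, a lipoxygenase gene, was among the 16 at 0.113 FPKM in LPS and 0.240 FPKM in LPS+Dex (log2 ratio 1.09), at levels below 1 FPKM. Around Cd207, 7 genes were tested, 3 of them higher, or 2 with the trend on level removed. Apart from Cd207 the 2 others that were higher lie among 6 neighbours tested, and 4 were not called.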

How the data were processed

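RNA-seq of 6 samples, 3 in each of 2 groups, was used as a table that the authors deposited, with 1 value per gene and group. The deposited expression values are FPKM, per the file headers. The deposited log2 fold change compares LPS+Dex with LPS, and the test statistic is a score, per the file headers, from which the implied SE was taken. The deposited p-value and q-value are the authors' own, per the file headers, and the q-value is adjusted over 11755 genes tested. The submitters' processing notes name CASAVA, TopHat 1.4.1 and Cufflinks 2.0.2 and build mm9, with no role or order. The way replicates were pooled, like the gene annotation, is not stated in those notes or in the labels.

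The 16 gene lists, that of the lectin receptors included, were chosen with earlier results of these data known, and they support nothing independently. Named genes were the list members called with a change of at least 1.5-fold and at least 1 FPKM in a group, up to 5 in each direction, and the 2 uncalled genes of highest mean. Some others, marker genes included, were chosen after their values were seen. Older symbols were matched through RefSeq synonyms. Per-sample columns not used numbered 0. Calculations used Python 3.11.15, pandas 2.3.3, numpy 2.4.6, statsmodels 0.14.6 and matplotlib 3.10.9. Only the adjustment of p-values, the p-value from an implied SE and the removal of the trend on level were tested on simulated data. The trend of log2 ratio on level was a lowess fit with a span of 0.3. Shared windows came from GENCODE transcripts of GRCm38, and coordinates of that build and mm9 were kept apart. A few list genes that the rule names are not reported here. Ly6g, Clec2f, Trac, Ighm and Igkc were not analysed here.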

Additional observations from a re-analysis of the deposited data

How the results depend on the processing

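No paired analysis was possible because the deposited table holds 1 value per group and no values per sample, and for the same reason no replicate was left out in turn. With Bonferroni adjustment 20.6% of all genes tested were called, and the counts fell to 4 for the lectin receptors (1 higher, 3 lower), 14 for signalling genes, 6 for inhibitors, 10 for other C-type lectin genes (1 higher, 9 lower) and 9 for genes induced through dectin-1 and mincle (4 higher, 5 lower). With a change of at least 1.5-fold 10.5% of all genes were called, 4 lectin receptors, 5 other C-type lectin genes, 6 signalling genes, 1 inhibitor (higher), 3 partner receptors (3 higher, 0 lower) and 7 transcription factors (1 higher, 6 lower). With the trend on level removed the lectin receptors split into 4 higher and 3 lower. Centring on the median log2 ratio of genes at 1 FPKM or more, which was -0.02, changed no call of a lectin receptor. No called log2 ratio of a lectin receptor changed sign, while the uncalled Clec4d went from -0.02 to 0.17 with the trend removed. Depth is unknown, and values under 1 FPKM rest on few reads.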
